A study of Mus musculus with 6 samples.

Results

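The 36 genes described here encode proteins of striated muscle, and they were read from array profiles of cells sorted as hair follicle stem cells (HFSCs) from mouse dorsal skin. They were taken by name from the deposited table, using the brightest row of each gene, averaged over the arrays. Every one of them had 1 row that named it alone, so all 36 were measured, out of 30738 genes tested. By role they comprise 9 genes of fast fibres, 4 of slow fibres, 11 of the sarcomere scaffold, 7 of calcium handling and 5 of energy supply. Mouse skin has a skeletal muscle, the panniculus carnosus, a thin sheet beneath the dermis, but these genes are not particular to it. The tissue that their signal came from was not tested.

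Skeletal muscle contracts when myosin heads pull on actin filaments inside sarcomeres, the repeating units bounded by Z-discs. A nerve impulse opens a voltage sensor in the surface membrane, calcium leaves the sarcoplasmic reticulum, and troponin on the thin filament lets myosin bind. Fast and slow fibres use different genes for the same parts, so that troponins, myosins, the reticulum calcium pump and calsequestrin each exist in a fast and a slow version. The panniculus carnosus of the mouse is known as a predominantly fast muscle, and it twitches the skin.

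The arrays covered 3 WT and 3 Dab2-cKO samples from female mice of the strain B6;129S4-Dab2tm1Cpr/J at postnatal day (PD) 35. Both genotypes carried floxed Dab2 alleles and received tamoxifen at 75 mg/kg on 5 consecutive days. WT mice lacked Cre, and Dab2-cKO mice carried an inducible Cre driven by the keratin 14 (K14) promoter, which is active in basal keratinocytes and not in muscle fibres. Dorsal skin was scraped free of fat and digested with trypsin, cells were scraped from the epidermal side, and HFSCs were sorted on CD34 and α6-integrin, a gate not meant to retain muscle. The labels call the samples biological replicates and do not say whether each is a single mouse.

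Signals are log2 values, so a difference of 1 unit is a factor of 2. Arrays of a group correlated at 0.9913 or more over all genes. Dab2, the targeted gene and an adaptor of clathrin-mediated endocytosis, goes against the labels: it was higher where Dab2-cKO is written (6.52 ± 0.08 log2 units in WT and 8.86 ± 0.09 in Dab2-cKO, SD, n = 3 each; adjusted p = 1.35e-05 by limma). It is not known here which part of Dab2 this row covers, and each direction below is that between arrays as labelled. The study places WT follicles in anagen, the growth phase, and Dab2-cKO follicles in telogen, the resting phase, at this age, so genotype and hair cycle phase cannot be told apart. Genes of the hair shaft and its inner sheath, which growing follicles make, had less signal in Dab2-cKO than in WT in 9 of 9. That is the direction which the labels and these phases give. The stage named for WT is anagen II, and whether that stage accounts for the size of the difference was not tested. Of the sort markers, CD34 (gene Cd34) had a signal of 9.55 ± 0.26 in WT and of 12.00 ± 0.24 in Dab2-cKO, and α6-integrin (gene Itga6) had 8.08 ± 0.02 and 9.19 ± 0.15. The background level, 7.26 log2 units, comes from olfactory and vomeronasal receptor genes, which skin is not expected to use. The median over these receptor genes was 5.54, 5.36 and 5.44 on the WT arrays and 4.69, 4.75 and 4.52 on the Dab2-cKO arrays. A fold against a group below the background level is computed from the level and given as "at least". Because a single level serves both groups, such folds and the counts above background are approximate near it.

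Of the 36 muscle genes, 33 were higher in the arrays labelled Dab2-cKO, 1 was lower and 2 did not pass the test (limma, Benjamini-Hochberg adjusted p of at most 0.05 over all genes). Among all 30738 genes, 18.2% were higher and 32.4% were lower, 50.6% passing in either direction. The median difference of the muscle genes was 3.00 log2 units and ran from -0.49 to 5.91, while the median over all genes was -0.14. With group means under the background level raised to it, a choice made after seeing the data, the median of the muscle genes was 2.39. In the same 33 genes every Dab2-cKO array lay above every WT array, which held for 22.2% of all genes. A difference of at least 2 log2 units was found in 27 of the muscle genes and in 1.94% of all genes. One of at least 3 units was found in 18 of them and in 0.647% of all genes. In bulk RNA a change in the number of cells of a type and a change in RNA per cell cannot be told apart.

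**Figure D1:**
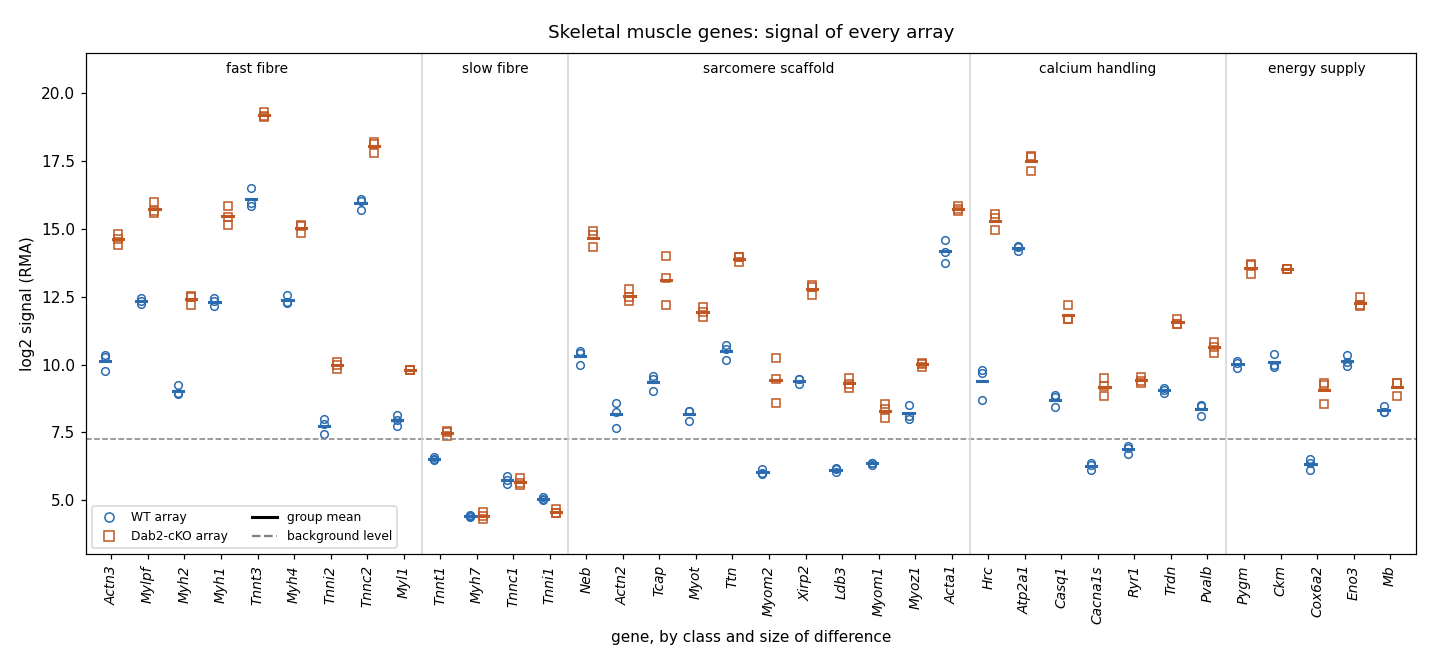
Log2 signal (y axis) of each of the 36 muscle genes (x axis), grouped by class and ordered by the size of the difference; blue circles are the 3 WT arrays, orange squares the 3 Dab2-cKO arrays, bars the group means and the dashed line the background level of 7.26. The orange squares lie above the blue circles without overlap in 33 genes, and all 4 genes of the slow fibre panel lie near or below the dashed line.

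The muscle genes were already measurable in WT. Of the 36, 26 lay above the background level in both groups, 7 in Dab2-cKO alone (Tnnt1, Myom1, Myom2, Ldb3, Ryr1, Cacna1s and Cox6a2) and 3 in neither (Tnni1, Tnnc1 and Myh7). The spread between arrays was small beside the differences, with a median SD of 0.18 log2 units in WT and 0.20 in Dab2-cKO. It exceeded 0.5 units in WT for Hrc (0.60) and in Dab2-cKO for 2 genes, Tcap (0.90) and Myom2. Within WT, replicate 1 was the lowest array for 22 of the 36 genes and replicate 2 the highest for 23. Within Dab2-cKO, replicate 2 was the lowest for 23. The muscle genes of a group tended to be high or low on the same array, with median deviations from the group mean between -0.12 and 0.12 log2 units.

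The fast fibre genes were all higher in the arrays labelled Dab2-cKO, 9 of 9, with a median difference of 3.09 log2 units. Tnnt3, fast troponin T, which ties the troponin complex to tropomyosin, read 15.97, 16.52 and 15.86 log2 units in WT and 19.31, 19.15 and 19.15 in Dab2-cKO. The groups did not overlap, and the difference of 3.09 ± 0.18 (SE) was an 8.51-fold rise (adjusted p = 7.07e-05, limma). The upper values lie close to the highest signal in the table, 19.93, at which readings stop. Tnni2, fast troponin I, the inhibitory subunit, read 7.43, 7.80 and 8.0 in WT and 10.08, 9.85 and 9.98 in Dab2-cKO. Its WT arrays lay just over the background level, and the rise was 4.69-fold (2.23 ± 0.16, adjusted p = 0.00014). Tnnc2, fast troponin C, the calcium-binding subunit, read 16.12, 16.05 and 15.70 in WT and 18.13, 17.82 and 18.23 in Dab2-cKO. It rose 4.29-fold without overlap (2.10 ± 0.16, adjusted p = 0.000166).

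The fast myosins differed in the same direction. Myh4, the heavy chain of the fastest (IIb) fibres, read 12.26, 12.56 and 12.29 log2 units in WT and 15.11, 14.85 and 15.14 in Dab2-cKO. Myh1, the IIx heavy chain, read 12.34, 12.46 and 12.17 in WT and 15.44, 15.16 and 15.84 in Dab2-cKO. Myh2, the IIa heavy chain, read 8.97, 9.24 and 8.92 in WT and 12.49, 12.20 and 12.52 in Dab2-cKO. None of these myosins had overlapping groups, and the rises were 6.32-fold for Myh4, 8.94-fold for Myh1 and 10.3-fold for Myh2. The light chains that sit on the myosin neck rose too, Mylpf 10.5-fold (3.39 ± 0.13) and Myl1 3.60-fold (1.85 ± 0.12), the latter with Dab2-cKO arrays between 9.79 and 9.80. Actn3, the α-actinin of fast Z-discs, had the largest difference of the class. It read 9.78, 10.28 and 10.35 in WT and 14.81, 14.41 and 14.63 in Dab2-cKO, a 22.3-fold rise (4.48 ± 0.18, adjusted p = 2.04e-05).

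The slow fibre genes behaved otherwise, with 1 of 4 higher, 1 lower and a median difference of -0.03 log2 units. Tnnt1, slow troponin T, read 6.52, 6.58 and 6.47 in WT, below background, and 7.35, 7.53 and 7.54 in Dab2-cKO, just above it. The groups did not overlap and the rise was at least 1.16-fold (0.95 ± 0.08, adjusted p = 0.000298). Tnni1, slow troponin I, read 5.06, 5.13 and 4.99 in WT and 4.53, 4.66 and 4.54 in Dab2-cKO, a fall between readings that all lay below background (adjusted p = 0.00288). Tnnc1, troponin C of slow and heart muscle, differed by -0.07 log2 units (95% interval -0.33 to 0.19), and its arrays lay between 5.58 and 5.89. Myh7, the slow and heart heavy chain, differed by 0.00 (95% interval -0.20 to 0.21) with arrays between 4.30 and 4.55. The groups overlapped in both, and readings this far under the background level do not show whether the genes were used at all. The directions of Tnni1 and Tnnc1 also turn with the scaling of the arrays: with the receptor genes as the common reference of the arrays, all 4 slow genes were higher, Tnni1 by 0.31 and Tnnc1 by 0.72 log2 units, while quantile normalization gave 2 higher genes.

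**Figure D2:**
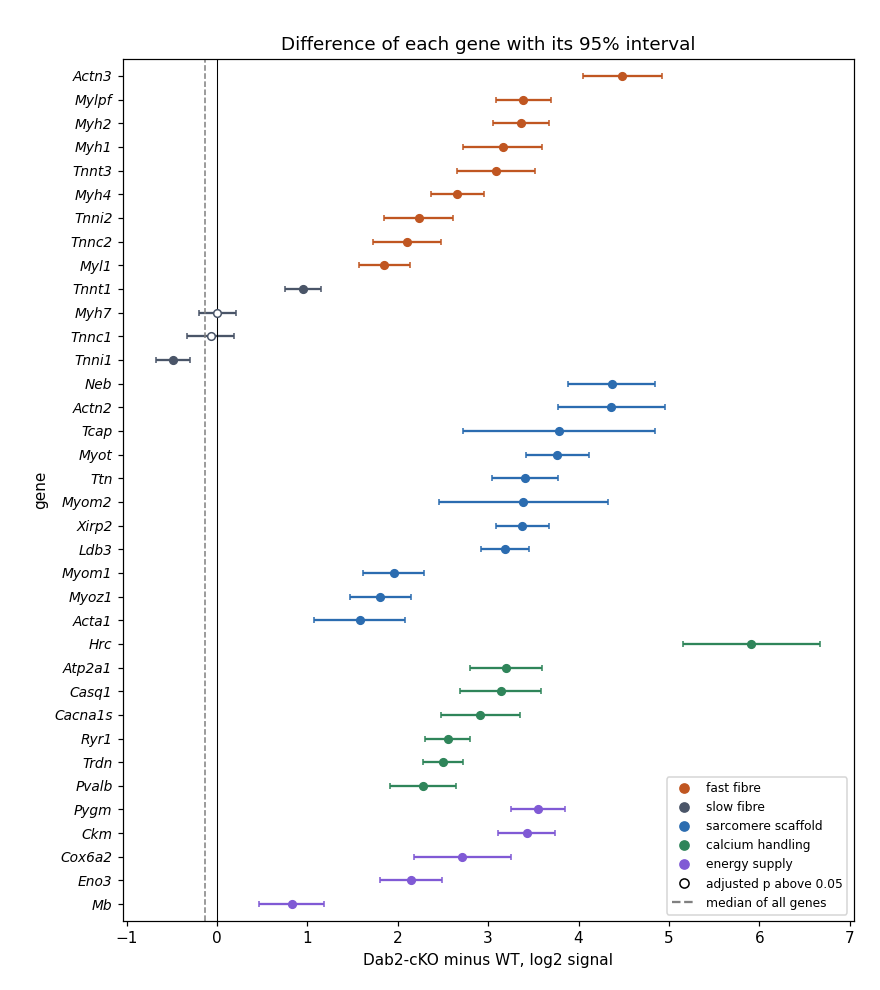
Difference in log2 signal, Dab2-cKO minus WT (x axis), for each of the 36 muscle genes (y axis) by class, with the 95% interval of limma as a bar; open points did not pass the threshold, the solid line is 0 and the dashed line is the median of all genes, -0.14. The slow genes lie between -0.49 and 0.95, below every gene of the other classes except Mb at 0.83, and Hrc lies farthest right at 5.91.

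For 7 pairs, 5 of them with a gene of the fast class and 2 with a calcium-handling gene, the fast gene was also set against a relative on the same array, where any scaling common to the array cancels. The log2 ratio of Tnnt3 to Tnnt1 was higher in Dab2-cKO by 2.14 units, that of Tnni2 to Tnni1 by 2.72, that of Tnnc2 to Tnnc1 by 2.17 and that of Myh4 to Myh7 by 2.66. The ratio of Atp2a1, the fast calcium pump SERCA1, to Atp2a2, the SERCA2 pump of slow muscle that many other cells use too, was higher by 4.01 units. The ratio of Casq1 to Casq2, the fast and the slow and heart calsequestrins, was higher by 2.52 units. In these 6 pairs the ratio was higher on each Dab2-cKO array than on any WT array, and each gave p = 0.1 in an exact two-sided permutation test, the smallest that 3 against 3 arrays allow (0.117 after Benjamini-Hochberg adjustment over 7 pairs). The ratio of Actn3 to Actn2, the α-actinin of all fibre types, differed by 0.12 units (p = 0.6 in the same exact test). Among the relatives only Actn2 and Atp2a2 lay above background in both groups, and Tnnt1 in Dab2-cKO alone, so the other ratios are limited by a partner that was not measurable. Atp2a2 itself read 11.98, 11.84 and 11.40 in WT and 11.09, 11.02 and 10.68 in Dab2-cKO, lower by 0.81 log2 units with no overlap (adjusted p = 0.0114). That call ends when the receptor genes are the common reference (difference -0.02, adjusted p = 0.924), whereas the ratio to Atp2a1 is unchanged by such scaling.

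**Figure D3:**
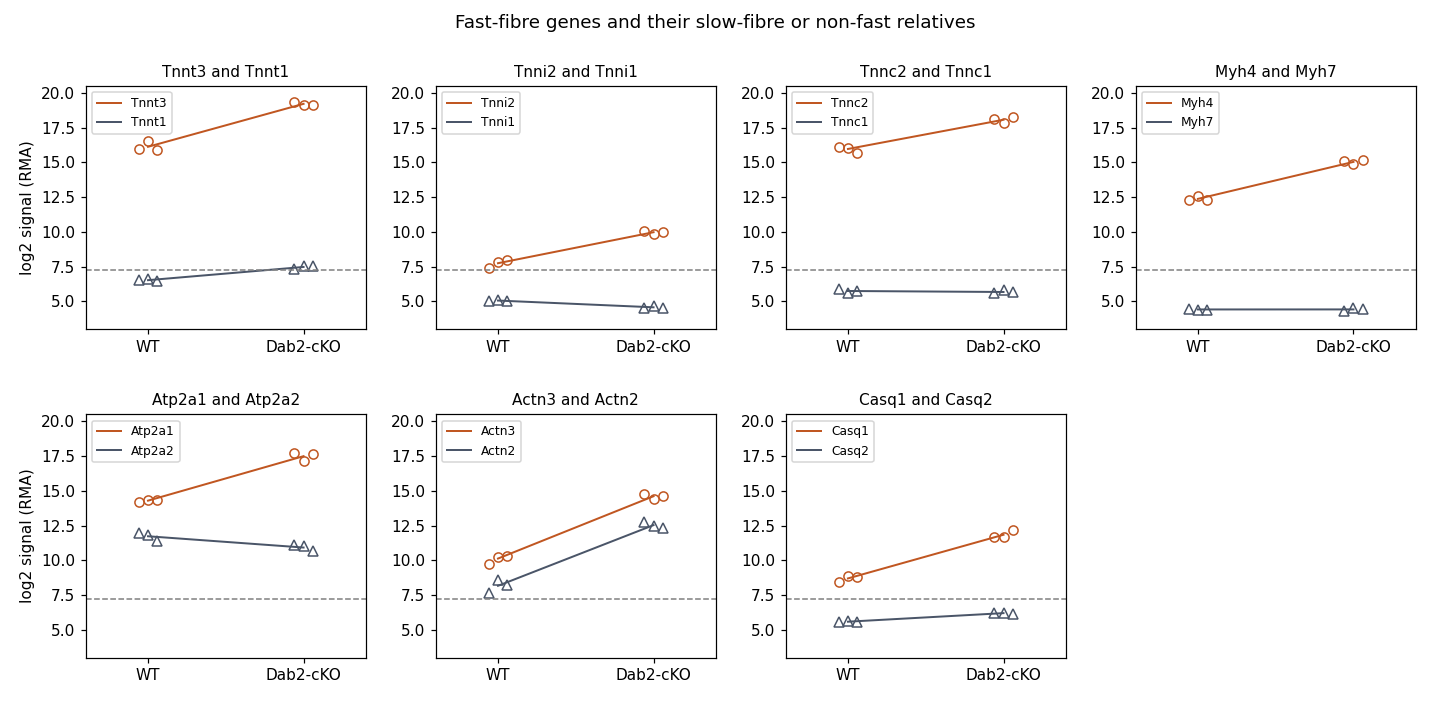
Log2 signal (y axis) of 7 pairs of fast genes (orange circles) and their slow or non-fast relatives (grey triangles) on the WT and Dab2-cKO arrays (x axis); lines join the group means and the dashed line is the background level of 7.26. The fast gene climbs in each panel, Actn2 climbs by a like amount and Atp2a2 goes down.

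By position, 9 of the 36 muscle genes lie on chromosome 7, which holds 8.66% of all genes tested, and 5 on chromosome 11. Troponin I and T genes lie in pairs in the RefSeq gene order, which lets neighbours be read together. The genes beside them were chosen after their values were seen. On chromosome 7, Tnni2 and Tnnt3 flank Lsp1, an actin-binding protein of leukocytes, and all these genes rose, Lsp1 at least 3.44-fold (adjusted p = 4.82e-05). In the pair of Tnnt1 and the heart gene Tnni3, Tnni3 stayed below background in both groups (difference 0.07, adjusted p = 0.417). On chromosome 1, Tnni1 and the heart gene Tnnt2 flank Lad1, a basement membrane anchor of keratinocytes, and the 3 genes did not move together: Lad1 fell by 1.16 log2 units (adjusted p = 0.0017), Tnni1 was lower as given above, and Tnnt2 differed by 0.15 (adjusted p = 0.168).

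The sarcomeric myosin heavy chains form a cluster on chromosome 11 in the order Myh3, Myh2, Myh1, Myh4, Myh8 and Myh13. The adult fast genes in its middle gave differences of 3.36, 3.16 and 2.66 log2 units. Myh8, the perinatal chain, read 6.13, 6.15 and 6.10 in WT and 7.36, 7.32 and 7.34 in Dab2-cKO, at least a 1.05-fold rise. Myh3, the embryonic chain, and Myh13, the chain of eye muscles, stayed below background in both groups with differences of 0.51 and 0.27. The neighbours outside the cluster were Sco1 (difference 0.06, adjusted p = 0.47) and Gas7 (1.12, at least 1.01-fold). The myosins of this cluster are close in sequence, and the probes of one row may also catch RNA of another, so their differences may not be independent of each other.

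**Figure D4:**
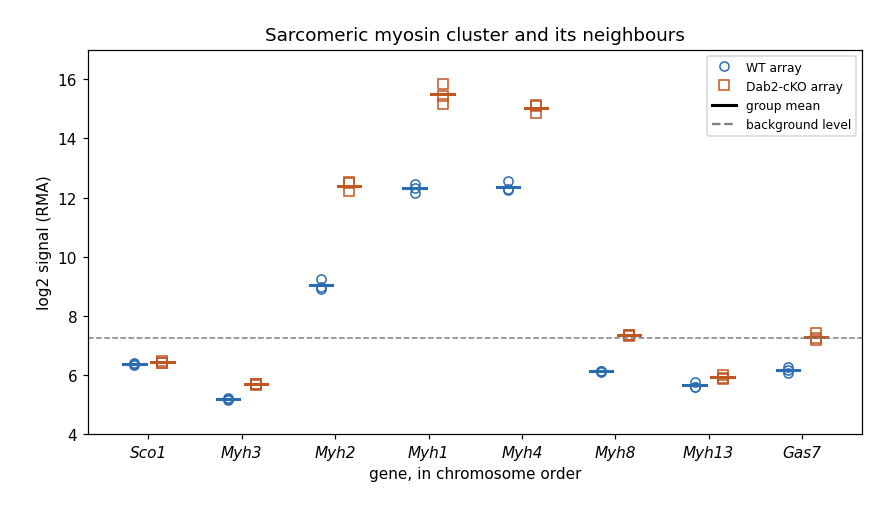
Log2 signal (y axis) of the myosin heavy chain genes of chromosome 11 and 1 neighbour on each side (x axis, in chromosome order, not to scale); circles are WT arrays, squares Dab2-cKO arrays, bars the group means and the dashed line the background level of 7.26. Myh2, Myh1 and Myh4 stand above the line in both groups and differ by 2.66 to 3.36 log2 units, and Myh3 and Myh13 stay below it.

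The regulatory sequence in front of these genes can be read from RefSeq promoter windows (assembly GRCm38.p6), which matched 26 of the 36 genes with 32 windows. The 250 bases before each start site were searched on both strands for the E-box CAGCTG, which myogenic factors such as MyoD bind, the site of MEF2, the CArG box of serum response factor, and TATAAA. The E-box occurred in windows of 12 muscle genes (43.8% of their windows, against 13% of all 32851 windows). The MEF2 motif occurred in 5 genes (Myh1, Myh4, Pvalb, Ttn and Xirp2; 15.6% of windows against 2.92%), and the CArG box in 4 (Acta1, Ldb3, Myh4 and Myom1; 15.6% against 1.47%). TATAAA was found in 5 genes, in 15.6% of windows against 12.4%. The windows printed are those of a fast gene that holds all 4 motifs, of the skeletal actin gene, whose E-box and CArG box stand far apart, and of the slow gene Myh7 for contrast, all 5′ to 3′ on the coding strand, with matches in capitals.
Myh4, chr11:67237562-67237811, plus strand: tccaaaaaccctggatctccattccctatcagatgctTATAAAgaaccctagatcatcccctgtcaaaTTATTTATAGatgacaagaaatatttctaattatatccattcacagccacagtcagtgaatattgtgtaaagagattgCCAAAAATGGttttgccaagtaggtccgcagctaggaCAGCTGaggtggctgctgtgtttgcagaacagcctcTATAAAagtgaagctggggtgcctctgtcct
Acta1, chr8:123894776-123895025, minus strand: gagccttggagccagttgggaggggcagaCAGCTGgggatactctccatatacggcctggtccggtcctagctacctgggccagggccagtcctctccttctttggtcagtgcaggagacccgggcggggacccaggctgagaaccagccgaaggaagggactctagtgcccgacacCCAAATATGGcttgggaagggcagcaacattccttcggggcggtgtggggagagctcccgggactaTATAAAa
Myh7, chr14:54994550-54994799, minus strand: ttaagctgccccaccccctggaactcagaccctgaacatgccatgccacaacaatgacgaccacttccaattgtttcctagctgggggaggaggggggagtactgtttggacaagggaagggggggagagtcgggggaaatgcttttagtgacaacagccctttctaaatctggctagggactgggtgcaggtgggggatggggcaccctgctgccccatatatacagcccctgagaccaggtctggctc
In Myh4, counted back from the start site, the MEF2 match begins at -182 and contains a TATAAA match on the other strand, the CArG box begins at -104, the E-box at -67, and the other TATAAA matches at -213 and -31. In Acta1 the E-box begins at -221, the CArG box at -73 and TATAAA at -7. Myh7 has 2 windows, of which the second is printed, and neither holds a match to these motifs. Matches describe the sequence only, since binding was not measured, and Tnni1, a slow gene that was lower, holds the E-box as well.

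The scaffold of the sarcomere was higher in all 11 genes, with a median difference of 3.39 log2 units. Neb, nebulin, which runs along the thin filament, read 9.999, 10.50 and 10.43 in WT and 14.78, 14.33 and 14.92 in Dab2-cKO, a 20.6-fold rise (4.37 ± 0.20, adjusted p = 3.16e-05). Ttn, titin, the spring that spans from Z-disc to M-band, read 10.19, 10.73 and 10.59 in WT and 13.97, 13.78 and 13.98 in Dab2-cKO, 10.6-fold. Neither gene had overlapping groups. Actn2 read 7.67, 8.59 and 8.26 in WT and 12.78, 12.49 and 12.35 in Dab2-cKO, a 20.6-fold rise (4.36 ± 0.24). Of the other Z-disc proteins, Myot (myotilin) rose 13.6-fold, Xirp2, an actin-binding repeat protein, 10.4-fold, Ldb3 (cypher) at least 4.12-fold, and Myoz1, which tethers calcineurin, 3.50-fold. None of these Z-disc genes had overlapping groups.

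Acta1, the α-actin of skeletal muscle, gave the smallest fitted difference of the scaffold genes. It read 14.17, 14.60 and 13.76 log2 units in WT and 15.73, 15.67 and 15.87 in Dab2-cKO, a 2.99-fold rise (1.58 ± 0.21, adjusted p = 0.0014). Tcap, telethonin, which caps titin at the Z-disc, read 9.02, 9.47 and 9.58 in WT and 13.19, 12.21 and 14.01 in Dab2-cKO. Its Dab2-cKO arrays were far more spread than its WT arrays but all stood above them (3.78 ± 0.44, 13.8-fold, adjusted p = 0.000847). Myom2, an M-band protein of fast fibres, showed the same order of Dab2-cKO arrays at 9.48, 8.58 and 10.23, against 5.99, 6.16 and 5.98 in WT (at least 4.50-fold). Myom1, the M-band protein of all fibres, rose at least 2.06-fold and kept that order too, at 8.36, 8.02 and 8.54.

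Calcium handling was higher in all 7 genes, with a median difference of 2.91 log2 units. Hrc, a histidine-rich calcium-binding protein of the sarcoplasmic reticulum, had the largest fitted difference of the 36. It read 8.70, 9.67 and 9.80 in WT and 15.55, 15.40 and 14.96 in Dab2-cKO, a 60.3-fold rise (5.91 ± 0.32, adjusted p = 5.34e-05). WT replicate 1 lay about 1 unit under the other WT arrays, and the groups were still separated by over 5 units. Atp2a1 read 14.20, 14.37 and 14.32 in WT and 17.71, 17.13 and 17.66 in Dab2-cKO, 9.18-fold (3.20 ± 0.16). Casq1, which buffers calcium inside the reticulum, read 8.44, 8.89 and 8.79 in WT and 11.68, 11.67 and 12.19 in Dab2-cKO, 8.81-fold.

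The units that release calcium rose as well, from lower readings. Cacna1s, the voltage sensor of the surface membrane, read 6.13, 6.39 and 6.30 in WT, all below background, and 9.22, 8.82 and 9.51 in Dab2-cKO, at least a 3.79-fold rise. Ryr1, the release channel it opens, read 6.71, 6.92 and 6.98 in WT and 9.53, 9.33 and 9.40 in Dab2-cKO, at least 4.46-fold. Both went from below the background level to above it on every array. Trdn, triadin, which links the channel to calsequestrin, rose 5.65-fold (2.50 ± 0.09). Pvalb, parvalbumin, the soluble calcium buffer of fast fibres, read 8.10, 8.49 and 8.49 in WT and 10.66, 10.44 and 10.83 in Dab2-cKO, 4.86-fold (2.28 ± 0.15).

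Energy supply was higher in all 5 genes, with a median difference of 2.71 log2 units. Ckm, muscle creatine kinase, read 9.92, 10.39 and 10.004 in WT and 13.54, 13.54 and 13.52 in Dab2-cKO, 10.8-fold (3.43 ± 0.13). Pygm, the glycogen phosphorylase of muscle, read 10.05, 10.14 and 9.89 in WT and 13.71, 13.35 and 13.67 in Dab2-cKO, 11.8-fold (3.56 ± 0.12). Eno3, the muscle enolase, rose 4.42-fold (2.14 ± 0.14), and Cox6a2, the heart and skeletal muscle form of a cytochrome oxidase subunit, at least 3.45-fold (2.71 ± 0.22). Mb, myoglobin, which stores oxygen and is richest in slow and oxidative fibres, had the smallest fitted difference among the 33 higher genes. It read 8.27, 8.26 and 8.49 in WT and 9.31, 8.85 and 9.33 in Dab2-cKO, a 1.77-fold rise with no overlap (0.83 ± 0.15, adjusted p = 0.00517).

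The wider muscle programme was read from lists of genes that are not among the 36. Other sarcomere genes were higher in 33 of 35, with a median difference of 1.70 log2 units. Those with the largest fitted differences were Ankrd23, a titin-bound ankyrin repeat protein (at least 12.0-fold), Mybpc1, the slow-type myosin-binding protein C (14.8-fold), and Klhl41, a nebulin-stabilising kelch protein (13.1-fold). The exceptions were Myl2 and Myl3, the light chains of slow and heart myosin, which lay below background in both groups with differences of 0.02 and -0.08. Of the 35 genes, 24 lay above background in either group, and all 24 were higher. With the positive control rows as the common reference 24 of the 35 were higher (median 1.35), and with the receptor genes all 35 were (median 2.49). Other energy genes were higher in 18 of 18 (median 1.59), among them Pdk4, which restrains pyruvate dehydrogenase (at least 13.9-fold), Cox7a1, a cytochrome oxidase subunit of muscle (18.3-fold), and Pfkm, muscle phosphofructokinase (11.4-fold). Pfkm read 11.40, 9.93 and 11.89 in Dab2-cKO, with replicate 2 lowest as in Tcap and Myom2.

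Other excitation-contraction genes were higher in 15 of 18 and lower in 1, Atp2a2, with a median of 0.83 log2 units. With the receptor genes as reference 17 were higher and 0 lower by limma, the same at an unadjusted p under 0.05 (median 1.62), and with the positive control rows 8 were higher and 2 lower (median 0.48). Tmem38a, the potassium channel TRIC-A of the reticulum, rose 15.2-fold, Sln (sarcolipin), which inhibits the calcium pump, at least 5.17-fold, and Jph1, which holds reticulum and surface membrane together, at least 2.10-fold. Regulators of the muscle programme were higher in 11 of 15 (median 0.83), and 12 of the 15 lay below background in WT. Only 7 of the 15 lay above background in either group, and 6 of these were higher. With the positive control rows as reference 8 of the 15 were higher and 1 lower, and with the receptor genes all 15 were higher. Smyd1, a methyltransferase needed for sarcomere assembly, rose at least 5.71-fold, Mef2c, a MEF2 factor, at least 6.27-fold, and Myf6, the myogenic factor of mature fibres, at least 1.18-fold. Embryonic sarcomere genes were higher in 3 of 5 (median 0.51), with Myh8 alone of the 3 above background, in Dab2-cKO. With the positive control rows as reference 1 was higher (median 0.16) and with the receptor genes all 5 were (median 1.3). At the neuromuscular junction 5 of 10 genes were higher (median 0.13) and none lay above background in either group. With the positive control rows as the common reference 0 were higher and 4 lower by limma (0 and 5 at an unadjusted p under 0.05; median -0.21), and with the receptor genes all 10 were higher, so the direction of this list depends on the scaling.

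Markers of muscle stem cells gave 4 higher and 1 lower of 12, none above background, and Pax7, their defining factor, read 4.65 ± 0.03 in WT and 4.70 ± 0.07 in Dab2-cKO (adjusted p = 0.557). Heart markers gave 1 higher and 2 lower of 10 (median -0.02), the higher one being Sln, which skeletal muscle also uses, and it was the only one of them above background. Both counts turn with the scaling, to 1 higher and 4 lower in each list with the positive control rows as reference and to 11 of 12 and 9 of 10 higher with the receptor genes. Smooth muscle markers were higher in 8 of 12, with a median of 0.70 log2 units. With the positive control rows as reference 6 were higher and 1 lower (median 0.35), and with the receptor genes all 12 were higher (median 1.49). Synpo2 rose at least 2.13-fold, Acta2 2.55-fold and Myh11, the defining myosin of smooth muscle, at least 1.46-fold. Tagln differed by 0.06 (adjusted p = 0.677, limma).

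Genes of other cells beneath and around the follicle also differed between the groups, in the same direction as the muscle genes. Fibroblast markers were higher in 10 of 11 tested (median 2.27 log2 units), and their mean signal ran from 9.17 to 9.46 on WT arrays and from 11.43 to 11.84 on Dab2-cKO arrays. Leukocyte markers were higher in 11 of 11 (median 3.00, with 9 of the 11 below background in WT), with array means of 6.34 to 6.56 and 9.70 to 9.86. The 36 muscle genes had array means that ran from 9.03 to 9.31 in WT and from 11.71 to 11.96 in Dab2-cKO. Endothelial markers were higher in 11 of 11 (median 2.36, all 11 below background in WT; 5.83 to 5.999 and 8.06 to 8.38), white adipocyte markers in 11 of 13 (median 1.32; 7.25 to 7.43 and 8.64 to 8.79) and pericyte markers in 5 of 7 (median 0.86; 6.17 to 6.32 and 7.30 to 7.63). The Schwann cell list was higher in 5 of 5 tested, with a median of 0.50 (1 of 5 with the positive control rows as reference), but only Pmp22, which fibroblasts use too, lay above background. The haemoglobin genes share rows, and all 4 such rows were higher, by 2.00 to 5.77 log2 units, whereas the other red cell genes tested, Alas2 and Slc4a1, stayed below background.

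Epithelial lists moved less uniformly. Basal keratinocyte markers were higher in 5 of 8 and lower in 1 (median 0.88), with array means of 9.99 to 10.17 in WT and 10.35 to 10.62 in Dab2-cKO. Markers of the bulge, where HFSCs reside, gave 6 higher and 3 lower of 10 (median 0.45). Genes of the hair shaft and its inner sheath fell in 9 of 9, with array means of 16.67 to 17.03 in WT and 6.14 to 6.19 in Dab2-cKO. The part that any of these other cells, or the hair cycle phase, had in the difference of the muscle genes was not tested.

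**Figure D5:**
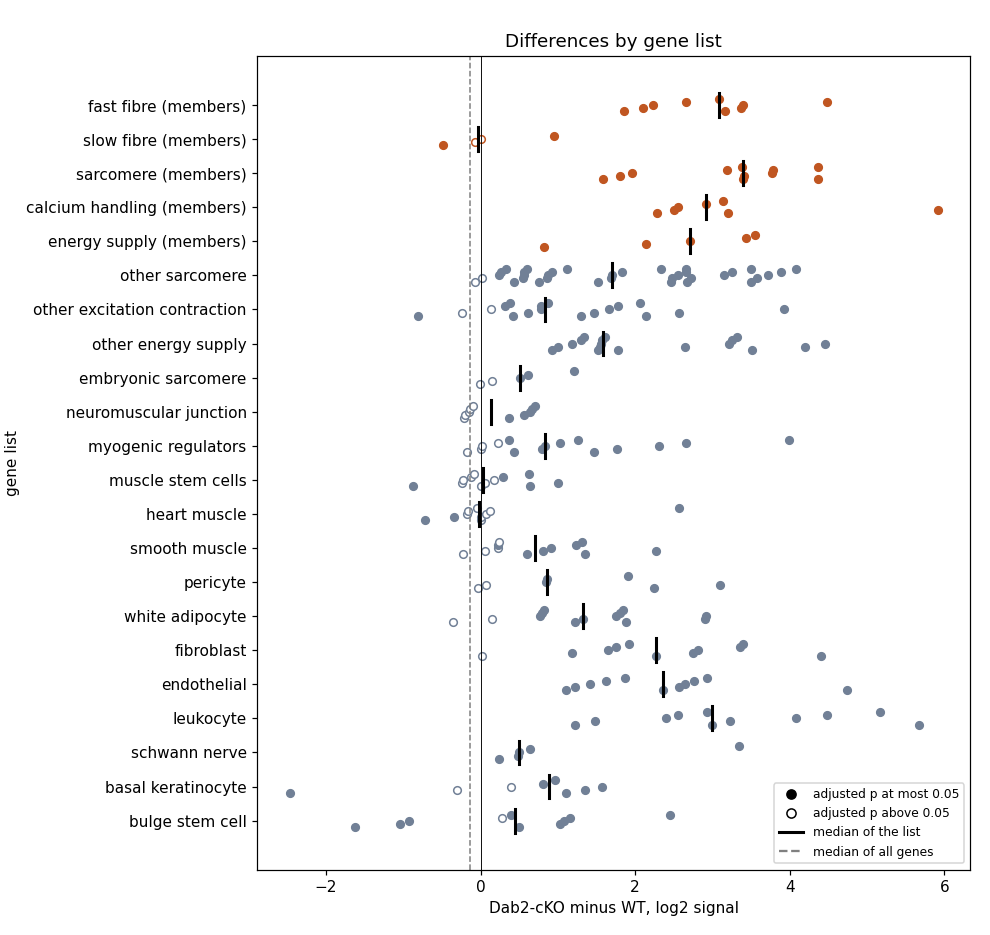
Difference in log2 signal, Dab2-cKO minus WT (x axis), of the tested genes of each list (y axis); each point is a gene, filled where the adjusted p was at most 0.05, orange for the 36 muscle genes, black bars are list medians and the dashed line is the median of all genes, -0.14. The lists of hair shaft and inner sheath genes, whose median was -10.86, and of red cells are not drawn. Leukocyte, endothelial and fibroblast lists lie to the right together with 4 of the 5 muscle classes, and the slow class, heart and muscle stem cell lists lie near 0.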

How the data were processed

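The authors amplified 1 ng of RNA from sorted cells (GeneChip WT Pico kit) for hybridisation to an Affymetrix mouse array of the whole transcriptome. Log2 signals were deposited by the authors, 1 per row and array. Affymetrix Expression Console and RMA, both without versions, stand in the submitters' processing notes. RMA equalises probe distributions between arrays, which hides a change in the total RNA of a cell. The table held 72688 rows, of which 6732 control rows, 1522 rows that name several genes and 33142 unnamed rows were left out of the gene test. Symbols were updated through RefSeq (GRCm38.p6), and for 439 genes with more than 1 row the brightest over all 6 arrays was kept.

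Differences of Dab2-cKO from WT were fitted by limma 3.58.1 in R 4.3.3 (lmFit, eBayes, no covariate), with two-sided p-values adjusted by Benjamini-Hochberg over 30738 genes and a threshold of 0.05. SE is the moderated error of limma. The background level was the 95th percentile over 1532 receptor genes (olfactory and vomeronasal) of their mean signal. No detection calls were used, and the number of arrays limits the precision. The fit was checked on simulated data.

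The members, classes, gene lists and promoter motifs were chosen with earlier results of these data known. All 36 members are named, and Dab2 is named as the targeted gene. From each other list the rule took up to 3 genes with the largest differences past the threshold, and not all of these are printed. Myl2, Myl3, Pax7, Tagln, Itga6, Atp2a2, Casq2 and the neighbours of clustered genes were added once their values were known. Alternatives were a replicate block, leaving out single arrays, quantile normalization, centring (median, receptor genes or positive control rows), the mean of all rows per gene, genes above background alone, a trend with robust prior, and all transcript rows.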

Additional observations from a re-analysis of the deposited data

How the results depend on the processing

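Over 15 alternatives, the 32 muscle genes outside the slow class kept their direction and call in 480 of 480 comparisons. The highest adjusted p of limma was 0.0393 and the lowest difference 0.48 log2 units. The alternative of genes above background keeps a gene whose mean passes the level in either group. Genes above it in Dab2-cKO alone entered through that group, so this alternative is no independent check of them. The median difference of the 36 genes was 3.79 with centring on the receptor genes and 2.65 with centring on the positive control rows. It was 2.39 with group means floored at the background level, an alternative chosen after seeing the data. With receptor centring 0 genes were lower. Among genes above background 0 were lower because Tnni1, the single lower gene, was left out of that fit. In the slow class, 2 genes were higher with quantile normalization and 4 with receptor centring, and 0 were lower with receptor centring. Only 1 slow gene, Tnnt1, lay above background, so that alternative says nothing of the other slow genes. With receptor centring Tnni1 was higher by 0.31 (adjusted p = 0.0434), Tnnc1 by 0.72 (adjusted p = 0.00048) and Myh7 by 0.80 (adjusted p = 0.000324). Quantile normalization gave Myh7 0.24 (adjusted p = 0.0401). The median of the neuromuscular junction list was -0.21 with positive control centring. The cause was not tested.

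Scaling decides the counts over all genes. Receptor centring moved the median of all genes by 0.79 and gave 22552 higher and 2400 lower genes (73.4% and 7.81%), and positive control centring moved it by -0.35 and gave 2599 and 15959 (8.46% and 51.9%). Median centring moved it by 0.20 (28% and 19.8%) and quantile normalization by 0.18 (26.4% and 21%). Among genes above background 3001 were higher and 3052 lower (34% and 34.6%). Deviations of same-numbered arrays from their group means correlated at -0.08, -0.22 and -0.02 over all genes. Such values cannot exclude a pairing, and the labels do not say whether the numbers pair samples. With a replicate block, 33 muscle genes were still higher and 1 lower, and 4704 genes in all were higher and 8009 lower. Leaving out 1 array changed no call of the 36 genes. Readings stop at 19.93 log2 units, and below 7.26 no level can be sized.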

Other observations

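The array also carries rows for precursors of muscle microRNAs, which were looked up after the other values were seen. Those of Mir1a-1, Mir1a-2, Mir133a-1, Mir133a-2, Mir208b, Mir499 and Mir486 did not pass the threshold (limma), and all lay below the background level in both groups. Their differences ran from -0.24 (Mir499, adjusted p = 0.345) to 0.23 log2 units (Mir1a-2, adjusted p = 0.121). Readings under the background level do not show whether these precursors were present.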
